A study of Mus musculus with 73 samples.

Results

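The data described here are the contacts that reach from one flank of the mouse X-inactivation centre to the other, measured by chromosome conformation capture carbon copy (5C). Members were chosen by position: a primer pair belongs if one fragment midpoint lies in the upstream window X:98831149-99870000 and the other in the downstream window X:101370001-103425147 (mm9). This gave 61582 of the 297498 primer pairs of the design, or 20.7%, and 22.8% of the 269808 pairs with both ends on the X chromosome. The windows were set with results of these libraries known, so the members' levels are given as a description. The upstream window, 1.04 Mb long, holds 126 forward and 128 reverse primers, and the downstream window, 2.06 Mb long, holds 236 forward and 249 reverse primers. The interval of 1.5 Mb between them holds another 149 forward and 151 reverse primers. Member pairs lie 1.52 to 4.58 Mb apart, with a median of 3.02 Mb.

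In 5C, cross-linked chromatin is cut with a restriction enzyme, ligated, and the ligated fragment ends are counted through primers designed for forward and reverse fragments. Each count therefore belongs to 1 forward and 1 reverse fragment, and pairs of 2 forward or 2 reverse fragments are never read. The X-inactivation centre holds Xist, whose RNA silences an X chromosome, and Tsix, the antisense transcript that represses Xist. Their promoters lie in neighbouring topologically associating domains (TADs), stretches of chromosome whose fragments contact each other more often than fragments outside. Xite is an enhancer element of Tsix. Genes such as Cited1 and Hdac8 lie on the upstream flank and Uprt, Zdhhc15, Magee1, Atrx and Pgk1 on the downstream flank, but no fragment was assigned to a gene here. The members cross the whole centre and include neither Xist nor Tsix fragments.

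All libraries came from E14Tg2a, a male (XY) embryonic stem cell line of the 129/Ola strain, grown without feeder cells in serum with LIF. The 5 genotypes were WT, the deletions XiteE-del and XiteC-del, and the inversions XiteE-inv and XiteC-inv, with 2 libraries each, 10 of the 73 samples of the series. The edited lines carry a deletion or an inversion in Xite made by genome editing, and no source used here explains the letters E and C. Both XiteE-inv libraries carry the same line label, whereas the libraries of each deletion and of XiteC-inv carry 2 line labels. No label says that the WT libraries or the XiteE-inv libraries came from separate cultures, so the spread between libraries may be technical. WT library 2 and XiteE-inv library 2 carry the code B101 in their labels, and the other 8 libraries carry B100. What the code stands for is not stated. No RNA was measured in these libraries, so cell type markers could not be checked in them.

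Library totals ran from 16267499 to 23928188 counts. In the XiteE-del libraries 2 primers of the region X:100623271-100633845 fell to at most 4.91% of their WT level, and in the XiteC-del libraries 1 primer at X:100636563-100639613 fell to at most 3.61%. The same primers stayed at 81.6% or more of WT in the other genotypes. No window primer was lost in any genotype, and an inversion removes no primer. The 2 libraries with code B101 stood apart from the other 8 in the long-range levels described below, and the code is split across genotypes so that the deletions and XiteC-inv have no B101 library.

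The long-range pairs took a small and code-dependent part of each library. Members held 4.84% of the counts of WT library 1 and 1.47% of those of WT library 2. They held 4.62% and 4.33% in the XiteE-del libraries. In XiteE-inv they held 4.75% and 1.32%. In XiteC-del they held 3.60% and 4.23%. In XiteC-inv they held 4.49% and 3.71%. The B101 libraries were thus the lowest of all 10, and the lowest B100 share was 2.44 times the highest B101 share. Exact 95% binomial intervals on these shares reached at most 0.0103 percentage points to either side. These intervals cover counting error only, since 5C reads carry no molecular identifiers.

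Pairs between an X primer and a chromosome 5 primer gave the background, because such pairs cannot be linked by the X fibre. There were 27014 of them. The mean member pair had 0.786 CPM (counts scaled to a library total of 1000000) in WT library 1, against 0.631 for the X to chromosome 5 pairs. In WT library 2 the corresponding levels were 0.239 and 0.104. The ratio of members to background was 1.18 to 1.35 in the 8 B100 libraries and 2.07 and 2.29 in the B101 libraries, and the codes did not overlap. The difference, members minus background, was 0.115 to 0.157 CPM per pair in the B100 libraries. It was 0.135 in WT library 2 and 0.111 in XiteE-inv library 2, so on this scale the codes overlapped nearly entirely. Members were above the background in 10 of 10 libraries, which a ratio above 1 and a difference above 0 state alike. The background rests on 26 forward and 26 reverse primers of chromosome 5. The part of primer yield in this excess was not tested. The plot of levels by library shows both kinds of pairs.

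**Figure D1:**
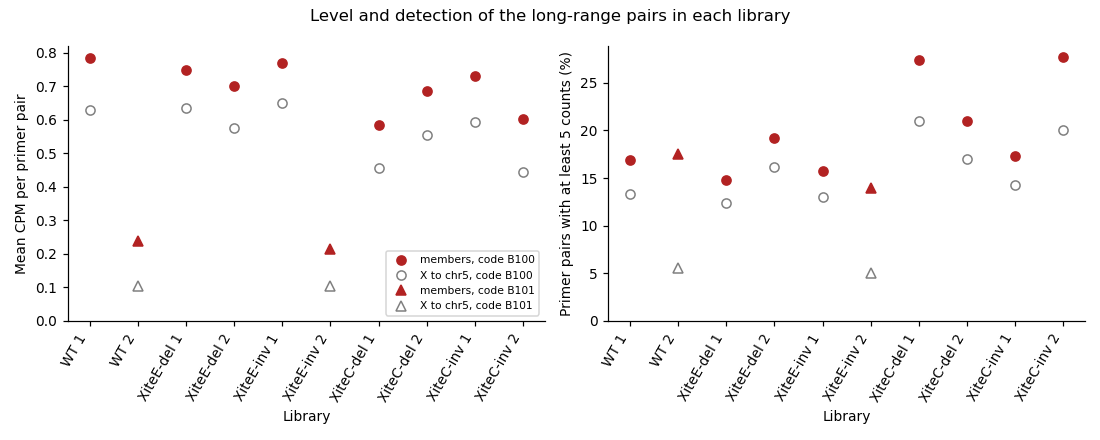
Left, mean CPM per primer pair for the members (filled) and for X to chromosome 5 pairs (open), right, the percentage of pairs with at least 5 counts. Circles are B100 and triangles B101 libraries, 1 point per library. Members lie above the background in every library, with the widest relative gap in WT 2 and XiteE-inv 2.

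Most member pairs were seen in few libraries. A pair with at least 5 counts is called detected here. Detection of members was 16.9% in WT library 1 and 17.5% in WT library 2. Over all libraries it was lowest in XiteE-inv library 2, with 8623 pairs detected, and highest in XiteC-inv library 2, at 27.7%. For the X to chromosome 5 pairs it was 13.3% and 5.59% in the WT libraries. Detection of members over that of the background was 1.19 to 1.38 in the B100 libraries and 2.80 and 3.13 in the B101 libraries. Of the member pairs 27.8% were detected in no library and 25.2% in 1 library, whereas 575 pairs (0.934%) were detected in all 10. Of the pairs detected in WT library 1, 28.1% were also detected in WT library 2, and 27.1% the other way round. These libraries differ in code, as do those of XiteE-inv, where the shares were 24.5 and 27.5%. Between libraries of the same genotype and code they were higher. They were 40.7 and 31.4% in XiteE-del, 36.6 and 47.7% in XiteC-del, and 49.7 and 31.1% in XiteC-inv. Such shares rise with the detection of the other library. Divided by that detection, they were 1.61 in WT and 1.75 in XiteE-inv, where the codes differ. With the same code they were 2.12 in XiteE-del, 1.74 in XiteC-del and 1.79 in XiteC-inv, so on this scale they were not always higher. WT library 1 with XiteE-del library 1, of different genotypes, gave 2.35. A single pair at this distance was therefore a poor measure of a single library, and the levels below are given for sums of pairs or for pairs seen in all libraries.

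Counts were concentrated in few pairs. The top 1% of member pairs by mean count, 616 pairs, held 40.9 to 47.1% of the member counts in the B100 libraries. They held 20.7% in WT library 2 and 25.4% in XiteE-inv library 2. For the background pairs the top 1% held 39.2 to 46.6% over all libraries. Without the top 1% of each kind, members exceeded the background by 0.0613 to 0.0913 CPM per pair in the B100 libraries, and by 0.128 and 0.101 in the WT and XiteE-inv libraries with B101. The excess over background was then higher in the B101 libraries than in every B100 library. The top 1% was chosen by the mean over all 10 libraries, 8 of them B100. Leaving it out took a larger part of the member counts from the B100 libraries, so this order depends on that choice.

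The most counted member pair joined the fragments of forward primer 217 (X:99550889-99554500) and reverse primer 1435 (X:103137979-103138749), 3.59 Mb apart. It had 2233 CPM in WT library 1 and 295 in WT library 2. In the other B100 libraries it ran from 2162 to 3256, and in XiteE-inv library 2 it was 400. At its highest it made up 7.48% of all member counts of a library. The second, forward primer 1479 (X:103262772-103267435) with reverse primer 147 (X:99343503-99343781), had 759 to 1387 CPM in the B100 libraries and 39.5 and 43.6 in the B101 libraries. Each of the 10 most counted member pairs was lower in both B101 libraries than in all 8 B100 libraries. The pairs were ranked by their mean over all 10 libraries, 8 of them B100. The ranking therefore favoured pairs that are high in B100, and this order is no separate evidence on the codes. The ratio of the B100 median to the B101 mean ran from 2.72 to 116.

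The highest of these ratios belonged to forward primer 64 (X:99058048-99058782) with reverse primer 1208 (X:102435914-102440371), which also varied most among the B100 libraries. It had 918 CPM in WT library 1, 478 and 178 in XiteE-del, 539 in XiteE-inv library 1, 63.5 and 148 in XiteC-del, and 164 and 34.6 in XiteC-inv. The B101 values were 2.58 in WT library 2 and 0.355 in XiteE-inv library 2. WT library 1 was the highest and the 4 XiteC libraries were below the 2 other B100 genotypes. With 1 WT library per code, that order could not be told apart from the variation of this pair between libraries.

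A smaller set of pairs was counted in every library above a floor, whatever its spread. There were 205 member pairs (0.333%) with at least 2 CPM in all 10 libraries, and they involved 189 of the 739 window primers. Of them 135 (65.9%) used at least 1 of 7 primers. Forward primer 1453 (X:103180843-103182303) had 42, reverse primer 309 (X:99811256-99820581) had 25, and reverse primer 29 (X:98920787-98921680) had 17. These primers were examined after their values had been seen. Reverse primer 309 was followed further because its member level stood highest over chromosome 5 among the reverse primers of these 7. Forward primer 1453 was also high with chromosome 5, at 6.53 to 11.5 CPM per pair in the B100 libraries and 2.46 and 2.58 in the B101 libraries. Its member level was 9.40 to 15.7 and 4.00 to 4.21. Reverse primer 309 differed in that respect: its member level was 2.94 to 4.36 in the B100 libraries, and its level with chromosome 5 was 0.134 to 0.482. In the B101 libraries its member level was 2.57 and 2.64, and that with chromosome 5 was 0.0591 and 0.114. Reverse primer 309 was not alone in this, and forward primers were not considered in the choice. Forward primer 217 (X:99550889-99554500) had a member level of 15.9 to 21.6 in the B100 libraries and 1.63 to 2.15 with chromosome 5. In the B101 libraries these were 2.34 and 2.94, and 0.253 and 0.203.

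The counts of reverse primer 309 formed a peak more than 2 Mb away. Whether it comes from contact between the fragments or from a property of the primers was not tested. In a stretch of the downstream window, X:101950001-102150000, it met 17 forward primers, of which 16 or 17 were detected in every library. The summed level over these 17 pairs was 231 CPM in WT library 1 and 243 in WT library 2. It was 267 and 232 in XiteE-del. It was 347 and 250 in XiteE-inv. It was 232 and 294 in XiteC-del, and 255 and 233 in XiteC-inv. The 10 libraries thus lay between 231 and 347, the B101 libraries fell inside the B100 range, and the genotypes overlapped except that both XiteE-inv values lay above both WT values. Reverse primer 309 was chosen through pairs counted in all 10 libraries, and the stretch was centred on its own highest member contact. A level that is alike across libraries and codes was therefore favoured by the choice.

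The peak was highest at forward primers 1076 (X:102028164-102032823) and 1078 (X:102046497-102048524), 2.21 and 2.23 Mb from reverse primer 309. Their levels were 26.9 to 61.7 and 22.9 to 61.9 CPM over the 10 libraries, with medians of 47.4 and 39.2. From there the level dropped on both sides. By 100 kb classes of distance the median over libraries was 4.54 CPM per pair at 2.0 to 2.1 Mb, 11.3 at 2.1 to 2.2 Mb, 21.3 at 2.2 to 2.3 Mb, 10.1 at 2.3 to 2.4 Mb and 3.80 at 2.4 to 2.5 Mb. Another rise, at 3.2 to 3.3 Mb, was seen in some libraries and not in others. It was 17.5 in WT library 1 and 1.09 in WT library 2, 7.69 and 1.34 in XiteE-del, 9.02 and 0.368 in XiteE-inv, 2.61 and 5.08 in XiteC-del, and 7.28 and 1.49 in XiteC-inv. Contacts of reverse primer 309 with forward primers less than 50 kb away stood at 32.6 to 51.1 per pair. Its contacts with the interval between the windows, although nearer, stood at 2.03 to 2.63, below the 13.6 to 20.4 of the stretch in every library.

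**Figure D2:**
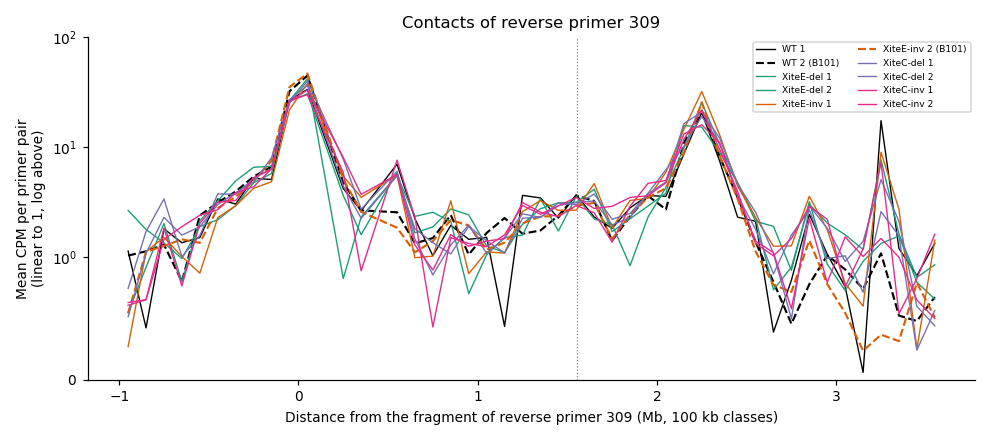
Mean CPM per primer pair of reverse primer 309 with forward primers at the distance on the x axis, in 100 kb classes with at least 2 forward primers. The y axis is linear to 1 and logarithmic above. Each line is a library, dashed for B101. Positive distances lead toward the downstream window, which starts at the dotted line. All 10 lines rise again at about 2.25 Mb, where the median is 21.3, and some rise at 3.25 Mb, where they run from 0.368 to 17.5.

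The opposite primer orientation was looked at with 1 reverse primer at the edge of the peak. Reverse primer 1075 (X:102025992-102028163) was chosen because it abuts the fragment of forward primer 1076. It had 5.76 to 19.3 CPM per pair with the 11 forward primers of X:99770001-99870000. With the other 115 forward primers of the upstream window it had 0.478 to 1.41, and with chromosome 5 it had 0.0319 to 0.654. The stretch was above the rest of the upstream window in 10 of 10 libraries. Between 8 and 11 of the 11 pairs were detected. Its highest partner was forward primer 294 (X:99787056-99788504), at 37.7 to 66.1 in the B100 libraries and 18.1 and 21.2 in the B101 libraries. Next was forward primer 298 (X:99789986-99792753), at 11.8 to 50.4 over all libraries. Over the 11 pairs WT library 2 had 5.76 CPM per pair and XiteE-inv library 2 had 6.83, against 11.6 to 19.3 in the B100 libraries. In this orientation the codes thus did not overlap, unlike for reverse primer 309.

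The peak was not shared alike by neighbouring primers. Over the same 17 forward primers reverse primer 299 (X:99792754-99792894) summed to 6.33 to 57.1 CPM over the libraries, and reverse primer 301 (X:99796357-99797722) to 10.1 to 47.5. Reverse primer 314 (X:99830728-99836227), on the other side, summed to 3.26 to 35.0. The 6 neighbours examined were all below the 231 of reverse primer 309 in every library, the lowest being reverse primer 307 (X:99801725-99811087) at no more than 0.376. The stretch had been placed around the highest contact of reverse primer 309, so a lower level of its neighbours there was favoured by the choice. Primers differ in overall yield, which was taken as their level with the interval between the windows, averaged over the libraries. It was 2.38 CPM per pair for reverse primer 309, 1.82 for 299, 2.39 for 301, 2.21 for 314 and 0.0139 for 307.

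Around reverse primer 1075 the 4 nearest reverse primers had at most 1.86 CPM per pair with the 11 upstream partners in any library, below the 5.76 of its lowest library. Reverse primer 1077 (X:102032824-102046496) had at most 0.770 there, with a yield of 2.38 CPM per pair against 2.37 for reverse primer 1075. Reverse primer 1069 (X:102013986-102015258) had at most 0.290, with a yield of 0.460.

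How often a window primer had such a run was counted over 19860 combinations of a primer with a 200 kb stretch of the opposite window that held at least 8 partners, stretches starting every 50 kb. In 29 of them at least 75% of the partners were detected in all 10 libraries, and they belonged to 5 primers. Forward primer 1453 held 18 of these, spread over the upstream window. Reverse primer 309 held 6, reverse primers 299 and 1012 held 2 each, and reverse primer 1075 held 1. Reverse primer 1012 (X:101830368-101831002) lies in the downstream window, and its partners lay at the same inner end of the upstream window as reverse primer 309.

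Detection of members fell with distance and then levelled off. From 1.5 to 1.75 Mb members were detected in 18.5 to 35.0% of pairs over the libraries, and from 3.5 to 3.75 Mb in 9.95 to 22.0%. Over the background share of the same library, the B100 median fell from 1.58 to 1.04 between these classes and the B101 mean from 4.63 to 2.04. From 3.5 Mb on, the B100 medians stayed between 1.04 and 1.11 up to 4.5 Mb, and the B101 means between 2.04 and 2.36. Detection was above background in 10 of 10 libraries in every class up to 3.5 Mb. From 3.5 to 4.5 Mb, it was so in 8 to 10 of 10 libraries, and both B101 libraries were above background in every class.

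**Figure D3:**
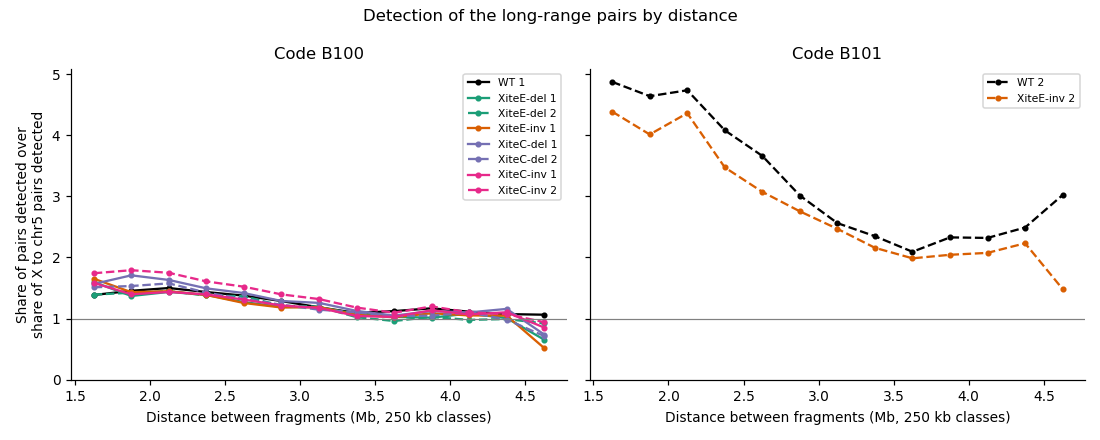
Share of member pairs detected (at least 5 counts) over the share of X to chromosome 5 pairs detected in the same library, by 250 kb classes of distance, for the 8 libraries with code B100 (left) and the 2 with code B101 (right). The grey line at 1 is the background. The last class holds 148 pairs. B100 lines approach 1 beyond 3.5 Mb, and B101 lines level off near 2.

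At 1.5 to 2.0 Mb members were detected less often than pairs that do not span the whole centre, and at 2.0 to 2.5 Mb the libraries differed. From 1.5 to 2.0 Mb members were detected in 17.6 to 35.8% of pairs in the B100 libraries, against 21.8 to 41.7% for pairs of the upstream window with the interval between, 21.4 to 42.3% for pairs of that interval with the downstream window, and 23.3 to 45.9% for pairs within the downstream window. WT library 2 gave 26.2% against 34.9, 31.6 and 38.8%. Members were below each of the 3 other kinds in 10 of 10 libraries. From 2.0 to 2.5 Mb they were below the upstream pairs in 10 and below the downstream pairs in 9 of 10, by smaller margins. From 2.5 to 3.0 Mb they were below the downstream pairs in 10 of 10, at 15.2 to 29.4% against 17.2 to 35.3% in the B100 libraries. In narrower classes of 250 kb, members were below the other X pairs together in 10 of 10 libraries from 1.5 to 2.0 Mb and from 2.5 to 3.0 Mb. From 2.0 to 2.25 Mb and from 2.25 to 2.5 Mb they were below in 7 of 10, and at 2.0 to 2.25 Mb both B101 libraries were above. Median distances within a class differed, being 1.86 Mb for members and 1.66 to 1.76 Mb for the other kinds in the first class, and the share of the first gap that goes with distance was not tested.

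The members were not uniform over the windows. Cut into 4 upstream blocks of 260 kb and 8 downstream blocks of 257 kb, numbered along the chromosome, the highest detection was in downstream block 3 (X:101883788-102140680) in 10 of 10 libraries. It was 22.7% in WT library 1 and 23.3% in WT library 2, and 19.4 to 35.1% over the B100 libraries. The background of that block was also the highest of the 8 in both WT libraries, at 16.6% and 7.78%, and over background block 1 led in both WT libraries (1.46 and 4.01, against 1.37 and 3.00 for block 3). The lowest was downstream block 5, 6 or 8, in 3, 3 and 4 libraries. Among the upstream blocks, of which block 4 is nearest the centre, the highest detection was in block 3 in 8 libraries and in block 4 in 2. The lowest was in block 1 in 5 libraries and in block 2 in the other 5. Over background the order changed: block 2 had the lowest background in WT library 2, at 2.64%, and there it was the highest upstream block, at 5.68 against 1.66 in block 1, 4.38 in block 3 and 4.44 in block 4. In the B100 libraries block 2 stood at 1.20 to 1.53 and block 1 at 1.01 to 1.18.

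Pairs of the outermost blocks did not follow distance alone. For the outer upstream blocks, detection in the outermost downstream blocks over that in the blocks before them was 1.07 to 1.16 in the B100 libraries and 1.29 and 1.48 in the B101 libraries. For the inner upstream blocks the same ratio was 0.956 to 1.08 and 1.00 to 1.01. The first ratio over the second was above 1 in 10 of 10 libraries, at 1.01 to 1.16 for B100 and 1.27 and 1.48 for B101. The blocks were chosen for this ratio after the values had been seen, so it is a description without a test.

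**Figure D4:**
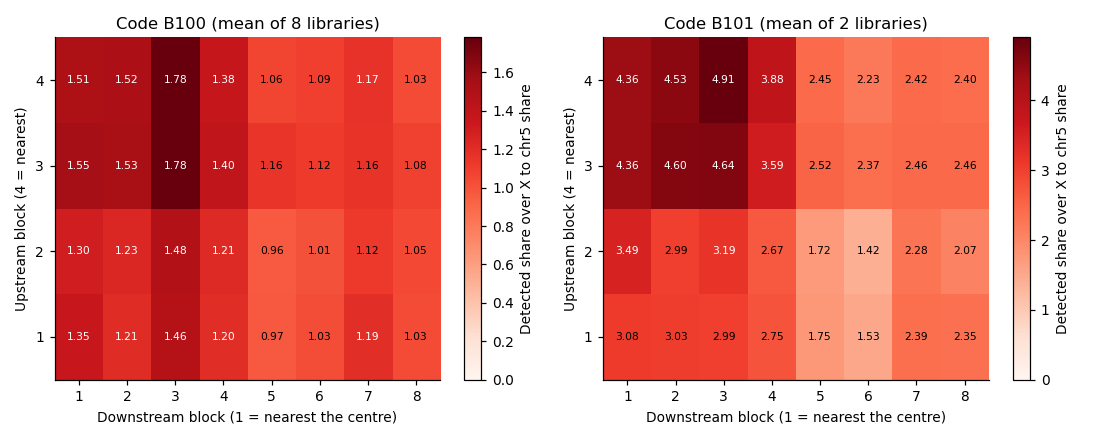
Share of pairs detected over the background share of the library, by upstream block (y, 4 nearest the centre) and downstream block (x, 1 nearest the centre), as a mean over the 8 B100 libraries (left) and the 2 B101 libraries (right), each with its own colour scale from 0. The highest cells join upstream blocks 3 and 4 with downstream blocks 1 to 3, and in B101 the lowest join upstream blocks 1 and 2 with downstream blocks 5 and 6.

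Counts were also summed over pairs of 30 kb bins and divided by the mean level of X pairs at the same distance, in 200 kb classes. These X pairs include the members. Other X pairs numbered 116 at 3.25 to 3.5 Mb, 11 at 3.5 to 3.75 Mb and 0 at 3.75 to 4 Mb. At such distances the expected level is thus mostly that of the members, with their most counted pairs. A median ratio below 1 therefore does not show that members were lower than other X pairs. Of the 2415 member bin pairs, 2115 had at least 4 primer pairs and a mean of 50 counts. Their median ratio was 0.496 in WT library 1 and 0.697 in WT library 2, and 85 (4.02%) were above 2 in both. The highest was X:99540001-99570000 with X:103110001-103140000, at 48.3 and 25.4 in the WT libraries and 32.4 to 60.3 in the other genotypes. The pair of primers 217 and 1435 held 89.0 and 94.7% of its WT counts. Second was X:98910001-98940000 with X:103170001-103200000, at 13.9 and 20.9. Next came X:98970001-99000000 with X:102060001-102090000, at 25.2 and 6.27. The fifth was X:99030001-99060000 with X:102420001-102450000, at 25.9 in WT library 1 and 0.691 in WT library 2.

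The fourth, X:99810001-99840000 with X:102030001-102060000, was the bin pair of reverse primer 309 and forward primers 1076 and 1078. Its ratio was 7.66 and 22.6 in the WT libraries. In the other B100 libraries it ran from 6.26 to 11.1, and in XiteE-inv library 2 it was 33.1. On the scale of CPM it was 89.3 and 95.5 in WT and 65.4 to 127 in the edited lines. The strongest of its 12 primer pairs held 30.2 and 55.8% of its WT counts, less than in 3 of the 4 others in both WT libraries. After the top 1% of member pairs had been left out, the ratio of this bin pair was 0.963 and 0.629, and those of the other 4 were between 0.113 and 2.24.

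By single bins, the highest mean ratios upstream were at X:98910001-98940000 (2.09), X:99540001-99570000 (2.02) and X:99810001-99840000 (1.84), averaged over both WT libraries. Downstream they were at X:103170001-103200000 (3.33), X:102090001-102120000 (3.05) and X:103110001-103140000 (2.69). The lowest upstream were X:99630001-99660000 (0.475), X:99150001-99180000 (0.502) and X:99210001-99240000 (0.525). The lowest downstream were X:102510001-102540000 (0.467), X:101520001-101550000 (0.476) and X:101460001-101490000 (0.485). High and low bins did not overlap in any of the 10 libraries. They were chosen by their mean over the WT libraries, so their separation in WT was favoured by the choice. The ratio does not take out primer yield, and its part in the separation was not tested. Without the top 1% of pairs the high bins ranged from 1.02 to 1.73 in the WT libraries and the low ones from 0.336 to 0.706.

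The design asks next whether changing Xite altered contacts that pass over it. Member bin pairs were compared with WT in 1 fit over all 10 libraries and all 11769 bin pairs tested, of which 2386 were members (edgeR's quasi-likelihood test, Benjamini-Hochberg adjustment over all of them, threshold 0.05). No member bin pair passed for any of the 4 edited genotypes, and none of all bin pairs did (0%). At an unadjusted p under 0.05 there were 74 members (3.10%) for XiteE-del, where 3.41% of all bin pairs were under it. For XiteE-inv there were 73 (3.06%) against 2.06%, for XiteC-del 36 (1.51%) against 1.64%, and for XiteC-inv 40 (1.68%) against 2.37%. DESeq2 called 1 member for XiteE-del and 3 for XiteE-inv, where it called 0.0935% and 0.0425% of all, and none for XiteC-del or XiteC-inv. The biological coefficient of variation of the fit was 62.1%, so this comparison could show only large changes of a bin pair.

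The members' median log2 fold change was 0.44 for XiteE-del, -0.08 for XiteE-inv, 0.28 for XiteC-del and 0.25 for XiteC-inv, where the medians of all bin pairs were 0.17, -0.03, 0.12 and 0.07. These medians depended on which WT library was used. Without WT library 1, leaving the B101 library, they were 1.34, 0.84, 1.18 and 1.16. Within code B100 alone they were -0.02, -0.05, -0.17 and -0.23. The direction of all 4 therefore turned with the WT library used, and the 4 comparisons share the same WT libraries.

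**Figure D5:**
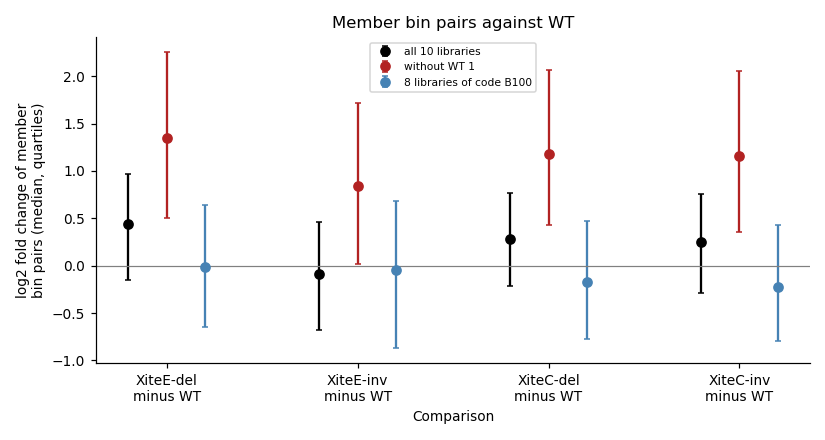
Log2 fold change of member bin pairs against WT for the 4 edited genotypes: points are medians and bars quartiles over the member bin pairs tested, for all 10 libraries, without WT library 1, and for the 8 libraries with code B100. The medians lie above 0 when WT library 1 is left out and at or below 0 within B100.

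For XiteE-del the member bin pair with the smallest p among those higher was X:99330001-99360000 with X:101940001-101970000. It had 7.79 and 4.73 CPM in WT and 44.0 and 34.7 in XiteE-del, which did not overlap. The other edited libraries with code B100 had 18.4 to 30.4 there, and XiteE-inv library 2 had 5.80. The log2 fold change was 2.65 ± 0.72 (SE, n = 2 and 2, edgeR adjusted p = 0.978), so it was not called. Among those lower it was X:98820001-98850000 with X:103230001-103260000, at 118 and 41 counts in WT and 4 and 1 in XiteE-del. XiteE-inv had 14 and 7 counts there and the XiteC libraries 50 to 117. The ratio of XiteE-del to WT in summed counts over summed library totals was 0.0244, with an exact 95% counting interval of 0.00781 to 0.0581 (edgeR adjusted p = 0.978). Within code B100, and by DESeq2 with all libraries, X:99120001-99150000 with X:101910001-101940000 was called lower. It had 19.5 and 0.307 CPM in WT and 0.373 and 0.0836 in XiteE-del, so WT library 2 lay within the XiteE-del range.

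For XiteE-inv the smallest p belonged to X:99300001-99330000 with X:102750001-102780000, which had 1 count in each XiteE-inv library. The WT libraries had 140 and 23 counts and the 6 other libraries 89 to 113. The ratio to WT in summed counts over summed library totals was 0.0102, with an exact 95% counting interval of 0.00123 to 0.0375. The edgeR adjusted p was 1.00 and that of DESeq2 was 0.0366. DESeq2 also called X:99270001-99300000 with X:101940001-101970000 and X:99000001-99030000 with X:101520001-101550000, both lower. Among those higher, X:99150001-99180000 with X:102390001-102420000 had 1.19 and 2.40 CPM in WT and 26.3 and 4.56 in XiteE-inv, a log2 fold change of 3.10 ± 0.89 (SE, n = 2 and 2, edgeR adjusted p = 1.00). Both XiteE-inv libraries were above both WT libraries, and so were all 6 others.

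For XiteC-del the smallest p of those higher was at X:98910001-98940000 with X:103080001-103110000, which had 2.97 and 0.922 CPM in WT and 13.1 and 17.1 in XiteC-del. The log2 fold change was 2.95 ± 0.91 (SE, n = 2 and 2, edgeR adjusted p = 1.00). The smallest p of those lower was at X:98820001-98850000 with X:103350001-103380000, which had 17.9 and 9.71 in WT and 2.31 and 3.93 in XiteC-del (-2.14 ± 0.81, edgeR adjusted p = 1.00). For XiteC-inv, X:98880001-98910000 with X:102180001-102210000 had 2.56 and 0.984 in WT and 12.1 and 12.3 in XiteC-inv (2.78 ± 0.81, edgeR adjusted p = 1.00). Among those lower the smallest p belonged to X:99750001-99780000 with X:101910001-101940000, which had 25.2 and 13.6 in WT and 4.12 and 6.14 in XiteC-inv (-1.92 ± 0.77, edgeR adjusted p = 1.00). In each of these 4 the genotype and WT did not overlap, and none was called. Nor were they particular to the genotype. In the higher bin pairs all other edited libraries were also above both WT libraries, at 3.41 to 13.7 and 3.26 to 15.7 CPM. In the lower ones XiteC-inv library 2 (12.1) and XiteE-del library 1 (14.2) lay within the WT range, respectively. The remaining edited libraries lay below it.

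With the code as a covariate, 1 member was called for each XiteC genotype, of 0.110% of all bin pairs called for XiteC-del and 0.263% for XiteC-inv. It was the same bin pair in both, X:99030001-99060000 with X:102420001-102450000, which holds the pair of forward primer 64 and reverse primer 1208 described above. Its log2 fold change was -2.81 for XiteC-del (edgeR adjusted p = 0.0486) and -2.94 for XiteC-inv (0.0186). Within code B100 these were -2.98 (0.0937) and -3.12 (0.0320). With no covariate the values were -1.99 ± 1.96 and -2.12 ± 1.96 (SE, adjusted p = 1.00 in both). Without WT library 1 the direction turned, to 4.51 for XiteC-del (edgeR adjusted p = 0.506) and 4.38 for XiteC-inv (0.465). In WT library 1, 1 primer pair held 99.8% of the counts of this bin pair, and within B100 it is the only WT library.

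The bin pair of the 2.2 Mb peak, X:99810001-99840000 with X:102030001-102060000, did not pass in any genotype. Its log2 fold change against WT was -0.02 ± 0.31 for XiteE-del, 0.45 ± 0.31 for XiteE-inv, -0.18 ± 0.31 for XiteC-del and -0.19 ± 0.31 for XiteC-inv (SE, n = 2 and 2 each). The edgeR adjusted p was 0.995 for XiteE-del and 1.00 for the others. Within code B100 the values were 0.03, 0.51, -0.13 and -0.14, with the sign turned for XiteE-del. The signs for XiteE-del, XiteC-del and XiteC-inv also turned under other settings, so no direction is given for them.

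Summed over all members, the edited lines lay below WT within each code. In code B100 all 7 edited libraries had a lower member share than WT library 1, at 0.743 to 0.980 of its value, and in code B101 XiteE-inv library 2 had 0.899 of WT library 2. Other measures were less uniform. Background-subtracted levels were below WT library 1 in 6 of 7, and in 7 of 7 without the top 1% of each kind, at 0.671 to 0.918 of its value. The ratio of detection to background was below it in 5 of 7, and the difference of detection from background in 4 of 7. The background share itself was below WT library 1 in 5 of the 7. With 1 WT library per code, no spread of WT within a code is known and no test was made.

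Deletions and inversions were compared with each other in the same fit. No member bin pair was called for XiteE-inv against XiteE-del, XiteC-inv against XiteC-del or XiteC-del against XiteE-del, nor for the difference of the first pair of contrasts, and none of all bin pairs was (0% in each, edgeR). At an unadjusted p under 0.05 there were 112 members (4.69%) for the first, 1 (0.0419%) for the second, 19 (0.796%) for the third and 50 (2.10%) for the difference. All bin pairs gave 4.39, 0.833, 2.20 and 2.72%. The spread of this fit was estimated over all groups, also WT and XiteE-inv, whose libraries differ in code. With the code as a covariate the biological coefficient of variation was 47.9%, against 62.1% without it. In that fit 4, 27, 25 and 12 of all bin pairs were called, in the same order, and 0 of them were members. The 0% without the covariate therefore does not show that the genotypes were alike. DESeq2 called 6 members for XiteE-inv against XiteE-del, of 0.204% of all bin pairs, and none in the other 3. The members' median log2 change was -0.51, -0.01, -0.15 and 0.50, where the medians of all bin pairs were -0.21, -0.05, -0.04 and 0.16. The first and the last rest on XiteE-inv library 2, which has code B101: without it they were 0.03 and -0.03, and without XiteE-inv library 1 they were -1.56 and 1.64. The second was -0.15 to 0.12 when libraries were left out, so its direction was not fixed either.

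The bin pair with the smallest p between XiteE-inv and XiteE-del was X:99300001-99330000 with X:102750001-102780000 again, at 1 count in each XiteE-inv library and 95 and 113 in XiteE-del (edgeR adjusted p = 0.973). Higher in XiteE-inv was X:99060001-99090000 with X:102870001-102900000, at 220 and 62 counts against 1 in each XiteE-del library. The ratio in summed counts over summed library totals was 151, with an exact 95% counting interval of 41.5 to 1256 (edgeR adjusted p = 0.973). WT had 7 and 3 counts there. DESeq2 gave both of these bin pairs an adjusted p of 0.0157.

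Between XiteC-inv and XiteC-del, X:99360001-99390000 with X:103320001-103350000 had 7.94 and 9.57 CPM against 2.45 and 1.35 (log2 2.20 ± 0.88). X:99090001-99120000 with X:102150001-102180000 had 1.93 and 1.67 against 4.72 and 8.70 (-1.89 ± 0.85). Between XiteC-del and XiteE-del, X:99390001-99420000 with X:101730001-101760000 had 3.02 and 1.46 against 13.3 and 9.70 (-2.35 ± 0.87). X:98820001-98850000 with X:103230001-103260000 had 117 and 85 counts against 4 and 1, a ratio of 44.2 in summed counts over summed library totals with an exact 95% counting interval of 18.6 to 138. The edgeR adjusted p of these 4 was 1.00. For the difference between the inversion and deletion contrasts, X:98940001-98970000 with X:101610001-101640000 had the smallest p (edgeR adjusted p = 1.00), with 2 counts in each XiteE-inv library and 147 and 231 in XiteE-del. XiteC-inv had 103 and 117 counts there and XiteC-del 29 and 90. In the other direction it was X:99060001-99090000 with X:102870001-102900000, described above.

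The largest difference among the libraries followed the code and not the genotype. With the code as a covariate in the fit, 732 of the 2386 member bin pairs (30.7%) differed between B101 and B100, where 26.9% of all bin pairs did. Of the members 731 were lower in B101 and 1 higher. Over all bin pairs 22.6% were lower and 4.30% higher. The members' median log2 difference was -1.47 and that of all bin pairs -0.54. The 1 higher member was X:99600001-99630000 with X:101520001-101550000, at 19.2 and 11.2 CPM in B101 and 2.68 to 17.9 in B100 (log2 1.83 ± 0.66, edgeR adjusted p = 0.0470). The smallest p among those lower belonged to X:99330001-99360000 with X:103260001-103290000, at 44.2 and 56.9 in B101 against 779 to 1415 in B100 (-4.60 ± 0.17, edgeR adjusted p = 9.85e-13). The others with the smallest p were X:98970001-99000000 with X:102060001-102090000, at 755 and 845 counts in B101 against 11924 to 19014 in B100, and X:98820001-98850000 with X:101670001-101700000, at 12.7 and 17.9 CPM against 279 to 437. The codes did not overlap in any of these 3.

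Scaled within distance classes, the difference between the codes took another form. With the counts of each distance class as the offset, 109 members (4.57%) differed, where 8.36% of all bin pairs did. Of these 35 were higher and 74 lower in B101, against 3.18% higher and 5.18% lower of all. The median of the members was then 0.35 and that of all bin pairs 0.15. Only WT and XiteE-inv have a library of each code, so the code difference rests on these 2 genotypes.

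Member calls outside that comparison were few. Within code B100, 1 member bin pair was called for XiteE-del, where 0.0764% of all bin pairs were, 1 for XiteC-inv (0.263%) and 1 for XiteC-del against XiteE-del (0.238%). With counts also offset by the total of each distance class, B100 gave 1 (0.0849% of all), 2 (0.280%) and 1 (0.238%). The code as a covariate with that offset gave 1 for XiteC-inv, where 0.289% of all bin pairs were called.

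Single primer pairs were tested the same way without binning. The test took in 153097 pairs averaging 10 counts or more, and 13419 of them were members. For XiteE-del 4 members were called, all higher than WT. Of all pairs 0.109% were called there, 30 higher and 137 lower. For XiteE-inv it was 5 members, of which 4 were lower (0.00914% of all, 6 higher and 8 lower). For XiteC-del it was 4, of which 2 were lower (0.0790%, 18 higher and 103 lower). For XiteC-inv it was 6, of which 1 was lower (0.0209%, 22 higher and 10 lower). XiteE-inv against XiteE-del gave 10, all lower in the inversion. Of all pairs 0.114% were called there, 139 higher and 36 lower. The code was not a covariate, and XiteE-inv library 2 has code B101. XiteC-del against XiteE-del gave 1, lower in XiteC-del (0.152%, 131 higher and 102 lower). XiteC-inv against XiteC-del gave no member, where 102 of all pairs were called. The difference of the inversion and deletion contrasts gave 4 (0.112%).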

How the data were processed

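The 10 deposited 5C tables hold raw read counts per forward and reverse primer pair, in mm9 with Bowtie2 per the submitters' processing notes. The deposited BED files (unit other) give fragment positions. Members, lists and windows were chosen with earlier results of these data known. Counts were scaled to the library total, summed over 30 kb bins, kept at a mean of at least 10, and fitted with edgeR 4.0.16 (group means, library total as offset, residual df 5) in R 4.3.3. DESeq2 1.42.0 was an alternative. The fit was tested on simulated data. Named bin pairs were, by a fixed rule, up to 3 called in each direction with the smallest adjusted p, or the 1 with the smallest p where none was called, and for WT the 5 highest pairs and the 3 highest and lowest bins. No 2 libraries held identical counts. Totals of 16267499 to 23928188 counts leave a median of 15 to 63 counts per detected member pair. Alternatives were TMM, distance-class offsets, filters of 50 or none, 100 kb bins, single primer pairs, a block, the code, and leaving out libraries. Other samples and the RNA tables were not analysed here. No mm9 sequence or annotation was used.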

Additional observations from a re-analysis of the deposited data

How the results depend on the processing

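Called member bin pairs numbered 0 in each of the 8 comparisons with all 10 libraries. The number was also 0 under TMM scaling, the distance-class offset, the other 2 filters and 100 kb bins, and it ran from 0 to 0 when each library was left out in turn. DESeq2 gave 1 for XiteE-del, 3 for XiteE-inv and 6 for XiteE-inv against XiteE-del. The code covariate gave 1 for XiteC-del and 1 for XiteC-inv, and with the distance offset 1 for XiteC-inv. Code B100 alone gave 1 each for XiteE-del, XiteC-inv and XiteC-del against XiteE-del, and with the distance offset 1, 2 and 1. Single primer pairs gave 4 for XiteE-del, 5 for XiteE-inv, 4 for XiteC-del, 6 for XiteC-inv, 10 for XiteE-inv against XiteE-del, 1 for XiteC-del against XiteE-del and 4 for the difference of contrasts. The cause was not tested. Among the log2 fold changes of named bin pairs under alternatives, 414 kept their sign and side of the threshold, 8 passed it (3 by DESeq2 and 5 for X:99030001-99060000 with X:102420001-102450000 with the code accounted for) and 14 changed sign, all in 2 bin pairs.

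For the 2.2 Mb peak, X:99810001-99840000 with X:102030001-102060000, XiteE-del over WT turned to 0.0016 with the code covariate, 0.029 in B100 alone, and 0.13 and 0.12 when these were joined with the distance offset. XiteC-del turned to 0.21 and 0.20 and XiteC-inv to 0.17 and 0.17 in the same 2 joined fits. Leaving out each library in turn gave -0.50 to 0.34 for XiteE-del and -0.44 to 0.026 for XiteC-inv. For X:99030001-99060000 with X:102420001-102450000 it gave -2.98 to 4.51 for XiteC-del and -3.47 to 4.38 for XiteC-inv, the positive ends being without WT library 1. The replicate block gave 0.49 for XiteC-del there.

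With the replicate number as a block, 0 member bin pairs were called in each comparison. The numbers were not taken to pair the samples: same-numbered libraries correlated at -0.07 to 0.10 in their deviations, except WT with XiteE-inv at 0.41, where the number coincides with the code.

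The log2 ratio of the summed member share to WT was 0.74 for XiteE-del, -0.09 for XiteE-inv, 0.55 for XiteC-del and 0.61 for XiteC-inv, and turned with the WT library left out. Leaving out each replicate in turn gave -0.12 to 1.60, -1.01 to 0.83, -0.31 to 1.41 and -0.25 to 1.47. Alternatives chosen after seeing the data set the members against the X to chromosome 5 pairs. For XiteE-del they gave -0.54, -0.73 and -0.67 by detection over background at 1, 5 and 10 counts. They gave -0.64 after subtraction without the top 1% of both kinds. For XiteC-inv detection at 5 counts gave -0.62. These values rest on WT library 2: its detection over background at 5 counts was 3.13, against 1.26 in WT library 1, 1.20 and 1.19 in XiteE-del and 1.22 and 1.38 in XiteC-inv. Member counts over expected counts in WT were 0.838, and 0.633 with the expected level taken from other X pairs. Leaving out either WT library gave 0.836 to 0.839. The observed over expected ratios of the named bin pairs fell without the top 1% of member pairs.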
